A study of Mus musculus with 15 samples.

Results

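The genes described here are 8 genes of the TREM2 pathway and of the programme known from lipid-associated macrophages: *Trem2*, *Tyrobp*, *Trem3*, *Treml2*, *Gpnmb*, *Spp1*, *Lgals3* and *Cd9*. They are a list of named genes, set by no threshold on a measured value, and make up 8 of the 51763 gene identifiers in the count table. All 8 were found in the table, and 7 passed the filter on low counts; the exception was *Trem3*. TREM2 is a surface receptor of macrophages, microglia and osteoclasts that binds lipids and lipoproteins. It has no signalling motif of its own and signals through the adaptor TYROBP (DAP12), which recruits the kinase SYK, while cleavage by ADAM10 and ADAM17 sheds its outer part from the cell. Macrophages that take up lipid in adipose tissue, atherosclerotic plaques and the damaged brain are known to carry high levels of *Trem2* together with *Gpnmb*, *Spp1*, *Lgals3* and *Cd9*, which encode a lysosomal and cell surface glycoprotein, the secreted protein osteopontin, the lectin galectin-3 and a tetraspanin.

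RNA was sequenced from 15 samples of bone marrow-derived macrophages (BMDMs), 3 in each of 5 groups. The cells came from wild-type female C57BL/6NTac mice, were grown with macrophage colony-stimulating factor (M-CSF) for 10 days by the labels, and were stimulated for 24 h. PBS was the unstimulated control. The HMGB1 protein was given at 5 µg/mL in its fully reduced form (frHMGB1) or in its disulfide form (dsHMGB1), and the last groups received 1000 ng/mL LPS or LPS with 20 ng/mL IFNγ (LPS/IFNγ), where the LPS was 100 ng/mL in the protocol text and 1 µg/mL in the treatment field. HMGB1 is a nuclear protein that acts as an alarm signal outside the cell, and its activity depends on the redox state of its cysteines. The frHMGB1 was a tagged recombinant protein made in-house with the reducing agent DTT, and the dsHMGB1 was a gift made without it, so that redox state and preparation cannot be told apart. Cells of 5 mice were pooled, which makes the samples of a group technical replicates, so the errors and p-values below say nothing of the spread between mice.

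The libraries held 40934540 to 80925478 counts, of which the 8 genes took 2.33% to 4.05%. Values are CPM, counts as a share of the library total after TMM scaling, unless stated otherwise. PBS replicate 3 stood apart: its log2 CPM values correlated with the other PBS libraries at r = 0.934 and 0.939, across genes, while every other pair of replicates lay between 0.987 and 0.993. The results of the members against PBS are therefore given with and without this library, and those of other genes and lists where leaving it out changed a call or a count by over 1.5 times. The scaling also mattered. With plain library totals in place of TMM, the median log2 fold change of all 16919 genes tested moved from -0.11 to -0.46 for dsHMGB1, from -0.27 to -0.89 for LPS and from -0.15 to -0.81 for LPS/IFNγ against PBS, and the percentage of called genes that were higher moved from 49.0% to 28.1%, from 42.5% to 21.9% and from 48.2% to 25.3%. All 8 macrophage marker genes passed the filter, with a summed level of 17073 to 21582 CPM in every library. Most of this sum was *Lyz2*, with group means of 11730 to 15966 CPM, and single markers changed. From PBS, *Adgre1* went from 708.7 to 1772 CPM after dsHMGB1, and *Fcgr1* from 87.6 to 275.9 and *Cd14* from 194.5 to 1614 after LPS. *Mertk* went from 63.5 to 502.1 CPM after LPS/IFNγ, and *Csf1r* from 2139 down to 1502 after LPS. Of 10 neutrophil markers, *Ly6g*, *S100a9*, *Retnlg* and *Mpo* had 0 counts in all libraries. *S100a8* had 2487 counts in all, with group means of 2.71 CPM in PBS and 5.19 after LPS. *Camp* had 174, *Cxcr2* 43, *Ltf* 29, *Elane* 15 and *Ngp* 2 counts. The whole list summed to 1.64 to 5.77 CPM. In bulk RNA a lower share of cells that express a gene and less RNA per cell cannot be told apart.

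The genes of the TREM family lie together on mouse chromosome 17 (GRCm38, plus strand): *Trem3* from 48247777 to 48258841, *Treml2* from 48299498 to 48312533 and *Trem2* from 48346401 to 48354147. *Tyrobp* is on chromosome 7, *Gpnmb* and *Cd9* are on chromosome 6, *Spp1* on chromosome 5 and *Lgals3* on chromosome 14. The RefSeq promoter windows of GRCm38.p6, which reach from 250 bases before to 50 bases after a transcription start, were found for 5 of the 8 genes. Those of the receptor *Trem2*, of *Gpnmb*, the member with the most reads, and of *Spp1*, the abundant member that rose after 3 of the 4 stimulations, are shown for the motifs they hold, which are in capitals. Their positions are chr17:48346151-48346450, chr6:49036268-49036567 and chr5:104434861-104435160, all on the plus strand.
Trem2: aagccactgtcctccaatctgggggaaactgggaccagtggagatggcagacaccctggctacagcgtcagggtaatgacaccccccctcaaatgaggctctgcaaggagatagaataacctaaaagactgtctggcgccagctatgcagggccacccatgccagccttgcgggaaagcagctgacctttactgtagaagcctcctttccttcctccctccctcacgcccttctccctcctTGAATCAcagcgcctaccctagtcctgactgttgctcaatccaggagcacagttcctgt
Gpnmb: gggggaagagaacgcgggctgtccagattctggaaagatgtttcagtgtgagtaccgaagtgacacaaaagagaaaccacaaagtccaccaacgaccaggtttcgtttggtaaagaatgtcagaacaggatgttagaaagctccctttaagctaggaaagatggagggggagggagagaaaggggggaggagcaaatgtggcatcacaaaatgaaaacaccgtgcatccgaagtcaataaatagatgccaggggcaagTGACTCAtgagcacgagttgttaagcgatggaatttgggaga
Spp1: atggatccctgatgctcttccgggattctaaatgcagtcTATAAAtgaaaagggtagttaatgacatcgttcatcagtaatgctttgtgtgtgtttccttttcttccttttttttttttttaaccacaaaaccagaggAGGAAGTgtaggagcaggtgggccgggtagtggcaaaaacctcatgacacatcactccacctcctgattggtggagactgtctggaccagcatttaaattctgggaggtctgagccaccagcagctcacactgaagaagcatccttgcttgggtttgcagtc
The capitals mark matches, on either strand, to the letters of 6 motifs: AP-1 (TGANTCA), MiT/TFE (TCACGTG), its variant (TCATGTG), the E-box (CACGTG, which lies within the first MiT/TFE motif), PU.1 (AGGAAGT) and the TATA box (TATAAA). *Trem2* held an AP-1 match that began 9 bases before the start and *Gpnmb* one that began at base 9 of the transcript, a motif present in 7.81% of 32851 RefSeq promoter windows of the same length. The *Spp1* window held a PU.1 match that began 112 bases before the start, found in 9.35% of all windows, and a TATA box match 211 bases before the start, found in 13.6%. The windows of *Lgals3* and *Cd9* and a second window of *Spp1* held none of these letters. A match describes the letters and says nothing of binding.

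The question of the comparisons was how the redox forms of HMGB1 differ from PBS, from each other and from LPS and LPS/IFNγ in this group of genes. A gene was called when its quasi-likelihood p-value from edgeR, adjusted by Benjamini-Hochberg over all 16919 genes, was under 0.05. Against PBS, 0 of the 7 tested members were called after frHMGB1, where 1.31% of all genes were called higher and 5.69% lower. Among protein-coding genes, to which all 7 belong, 1.44% were called higher and 0.422% lower. None of the 7 reached an unadjusted p under 0.05 in edgeR, and DESeq2 called 0 as well, whereas without PBS replicate 3 edgeR called *Trem2*, *Tyrobp* and *Cd9* higher. After dsHMGB1, 2 members were called higher and 4 lower, beside 23.3% and 24.2% of all genes. After LPS, 2 were higher and 2 lower beside 26.7% and 36.2% of all genes, and after LPS/IFNγ, 2 were higher and 3 lower beside 29.0% and 31.2%. The counts of members called thus lie beside backgrounds that are themselves large. *Spp1* and *Treml2* were the higher members in each of these 3 comparisons, and *Trem2* and *Tyrobp* were among the lower ones in each.

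**Figure D1:**
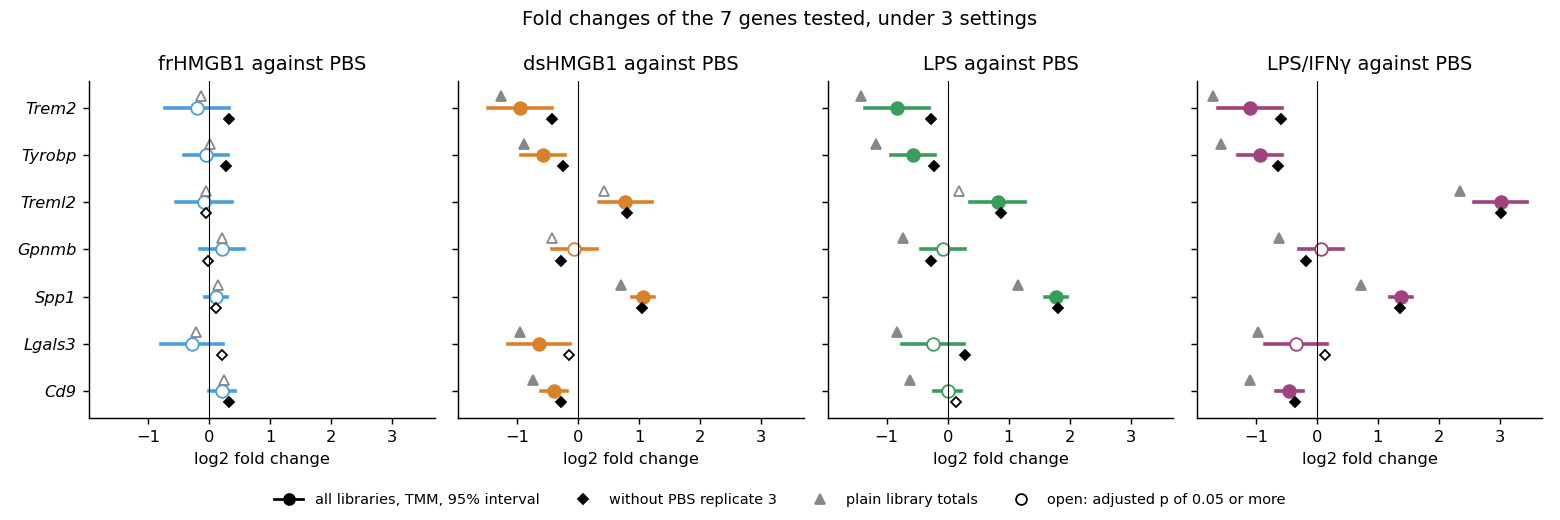
Log2 fold change (x axis) of the 7 tested genes (y axis) against PBS in 4 panels, 1 for each stimulation. Circles are the values from all 15 libraries with TMM scaling and lines their 95% intervals, diamonds the values without PBS replicate 3, triangles those with plain library totals, and open symbols an adjusted p of 0.05 or more. *Spp1* and *Treml2* lie to the right of 0 and *Trem2* and *Tyrobp* to the left after dsHMGB1, LPS and LPS/IFNγ in all 3 settings. Every gene but *Spp1* changes side or call with the setting in at least 1 of the 4 panels.

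Between stimulations, 2 members were higher and 3 lower after dsHMGB1 than after frHMGB1, where 27.7% of all genes were called higher and 23.1% lower. After dsHMGB1, 0 members were higher and 2 lower than after LPS (15.8% and 10.6% of all genes), and 0 were higher and 2 lower than after LPS/IFNγ (16.5% and 16.7%). LPS/IFNγ against LPS gave 1 higher and 2 lower (16.3% and 9.36%), LPS against frHMGB1 2 higher and 2 lower (25.5% and 28.0%), and LPS/IFNγ against frHMGB1 2 higher and 3 lower (33.8% and 30.4%). With plain library totals the percentage of called genes that were higher moved from 54.6% to 34.5% for dsHMGB1, from 47.7% to 23.1% for LPS and from 52.7% to 31.0% for LPS/IFNγ against frHMGB1, and from 59.9% to 84.0% for dsHMGB1 against LPS and from 49.8% to 74.3% against LPS/IFNγ. The comparisons share libraries, so these counts are not independent of each other.

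*Trem2* and its adaptor *Tyrobp* fell after dsHMGB1, LPS and LPS/IFNγ. The falls after dsHMGB1 and LPS were not called in a test against 1.5-fold or in fits of the compared groups alone. After LPS/IFNγ the fall of *Tyrobp* kept its call in both, and that of *Trem2* kept it against 1.5-fold only. The receptor *Trem2* was at 975, 890.5 and 2128 CPM in the PBS libraries, 1125, 1180 and 1169 after frHMGB1, 774.7, 606.3 and 679.4 after dsHMGB1, 744.9, 741.5 and 765.8 after LPS, and 624.1, 606.9 and 639 after LPS/IFNγ. PBS replicate 3 was 2.28 times as high as the mean of the other PBS libraries, and all 9 libraries of the last 3 groups lay below every PBS and frHMGB1 library. The log2 fold change against PBS was -0.95 ± 0.24 (SE, n = 3 per group, edgeR adjusted p = 0.00597) after dsHMGB1, -0.83 (edgeR adjusted p = 0.00999) after LPS and -1.09 (edgeR adjusted p = 0.0017) after LPS/IFNγ. Without PBS replicate 3 the falls were smaller, at -0.43, -0.27 and -0.59, with edgeR adjusted p = 8.1e-05, 0.00363 and 1.41e-06. After frHMGB1 the value was -0.20 ± 0.24 (edgeR adjusted p = 0.744) with all libraries and 0.32 (edgeR adjusted p = 0.00673) without PBS replicate 3, so that the direction turns on this library. Against frHMGB1, where no PBS library enters the contrast, *Trem2* was lower after dsHMGB1 (-0.75 ± 0.24, edgeR adjusted p = 0.0205).

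*Tyrobp* followed the same order of groups. It was at 895.1, 842.8 and 1499 CPM in PBS, 1015, 1076 and 1045 after frHMGB1, 786.2, 666.3 and 720.2 after dsHMGB1, 734.9, 712 and 739 after LPS, and 570, 552.8 and 568 after LPS/IFNγ. The libraries after LPS/IFNγ were the lowest, and those after dsHMGB1 and LPS overlapped each other but neither PBS nor frHMGB1. The log2 fold changes against PBS were -0.58 ± 0.17 (SE, edgeR adjusted p = 0.0126) after dsHMGB1, -0.57 ± 0.17 (edgeR adjusted p = 0.00999) after LPS and -0.94 ± 0.17 (edgeR adjusted p = 0.000302) after LPS/IFNγ, and -0.25, -0.22 and -0.63 without PBS replicate 3, all still called. After frHMGB1 *Tyrobp* stood at -0.05 (edgeR adjusted p = 0.922) with all libraries and at 0.28 (edgeR adjusted p = 0.0051) without PBS replicate 3. In the order of group means, the step from frHMGB1 to LPS was the only one between neighbours that was called, for both genes. That call was lost in 18 of 24 alternatives for *Trem2*, RLE scaling (edgeR adjusted p = 0.10) and protein-coding genes alone (edgeR adjusted p = 0.0693) among them, and in 7 of 24 for *Tyrobp*, among them RLE scaling (edgeR adjusted p = 0.0622). For *Tyrobp* the dsHMGB1 libraries lay above those of LPS/IFNγ without overlap, a difference of 0.36 that was not called (edgeR adjusted p = 0.122) but was without PBS replicate 3 (0.38, edgeR adjusted p = 1.47e-05) and with plain library totals (0.67, edgeR adjusted p = 0.00146).

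The ratio of *Trem2* to *Tyrobp* counts within a library does not depend on the scaling. It was 1.06 to 1.42 in PBS, with the highest value in PBS replicate 3, 1.10 to 1.12 after frHMGB1, 0.91 to 0.985 after dsHMGB1, 1.01 to 1.04 after LPS and 1.09 to 1.12 after LPS/IFNγ. The dsHMGB1 libraries had the lowest ratios, with *Trem2* under *Tyrobp* in counts in all 3, and did not overlap any other group. Per length the order was the other way round: *Tyrobp*, with 667 bases of exon, was at 1618 ± 546.5 RPKM (CPM divided by exon length in kilobases, mean ± SD, n = 3) in PBS and *Trem2*, with 4946 bases, at 269.1 ± 139.7 RPKM. After LPS/IFNγ the adaptor was at 845 ± 14.1 RPKM and the receptor at 126 ± 3.25 RPKM. Among 13025 protein-coding genes ranked by RPKM, *Tyrobp* moved from rank 15 in PBS to rank 57 after LPS/IFNγ and *Trem2* from rank 111 to rank 462. The lengths join the exons of all annotated transcripts of a gene, and which transcripts the cells used was not tested. The gap in RPKM and the ranks depend on these lengths.

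**Figure D2:**
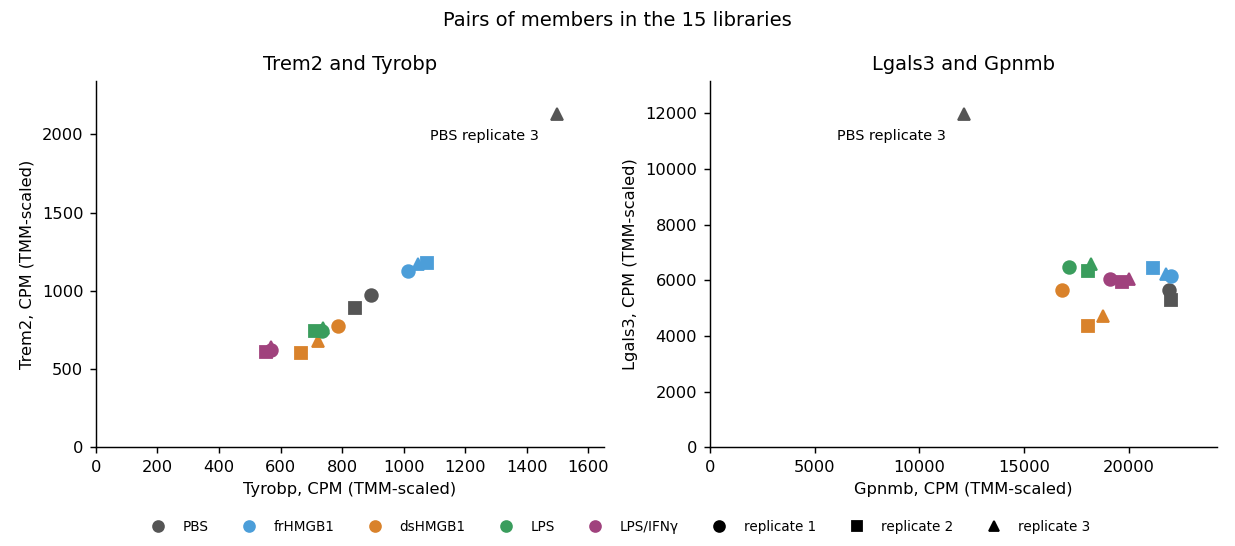
Levels in CPM (TMM-scaled) of *Trem2* against *Tyrobp* (left) and of *Lgals3* against *Gpnmb* (right) in the 15 libraries, with colour for the group and marker shape for the replicate. Receptor and adaptor fall on a narrow band, with PBS replicate 3 at its upper end at 2128 and 1499 CPM, and in the right panel PBS replicate 3 lies apart with *Lgals3* at 11955 and *Gpnmb* at 12160 CPM.

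The remaining TREM receptors were rare. *Treml2*, a receptor of the TREM cluster found on myeloid and lymphoid cells, was at 0.778, 0.884 and 0.86 CPM in PBS, 0.906, 0.547 and 0.936 after frHMGB1, 1.30, 1.41 and 1.59 after dsHMGB1, 1.33, 1.33 and 1.79 after LPS, and 6.32, 7.03 and 6.97 after LPS/IFNγ. The LPS/IFNγ libraries stood clear of all others, and the dsHMGB1 and LPS libraries overlapped each other but not PBS. *Treml2* rose by 3.01 ± 0.20 on the log2 scale after LPS/IFNγ against PBS (edgeR adjusted p = 3.05e-08) and by 2.19 against LPS (edgeR adjusted p = 4.31e-06). Its rises after dsHMGB1 (0.77, edgeR adjusted p = 0.00694) and LPS (0.82, edgeR adjusted p = 0.00375) were not called with plain library totals, where they were 0.42 and 0.19, while without PBS replicate 3 all 3 rises kept their call at 0.80, 0.87 and 3.01. The counts behind these levels were small, at 30 to 443 per library. *Trem3* had 24 counts in all 15 libraries together, of which 4 were in PBS replicate 2, 4 in dsHMGB1 replicate 2 and 16 in dsHMGB1 replicate 3. The other 12 libraries had 0, which allows a level of up to 3 counts, or 0.0348 to 0.0753 CPM, for counting error only.

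**Figure D3:**
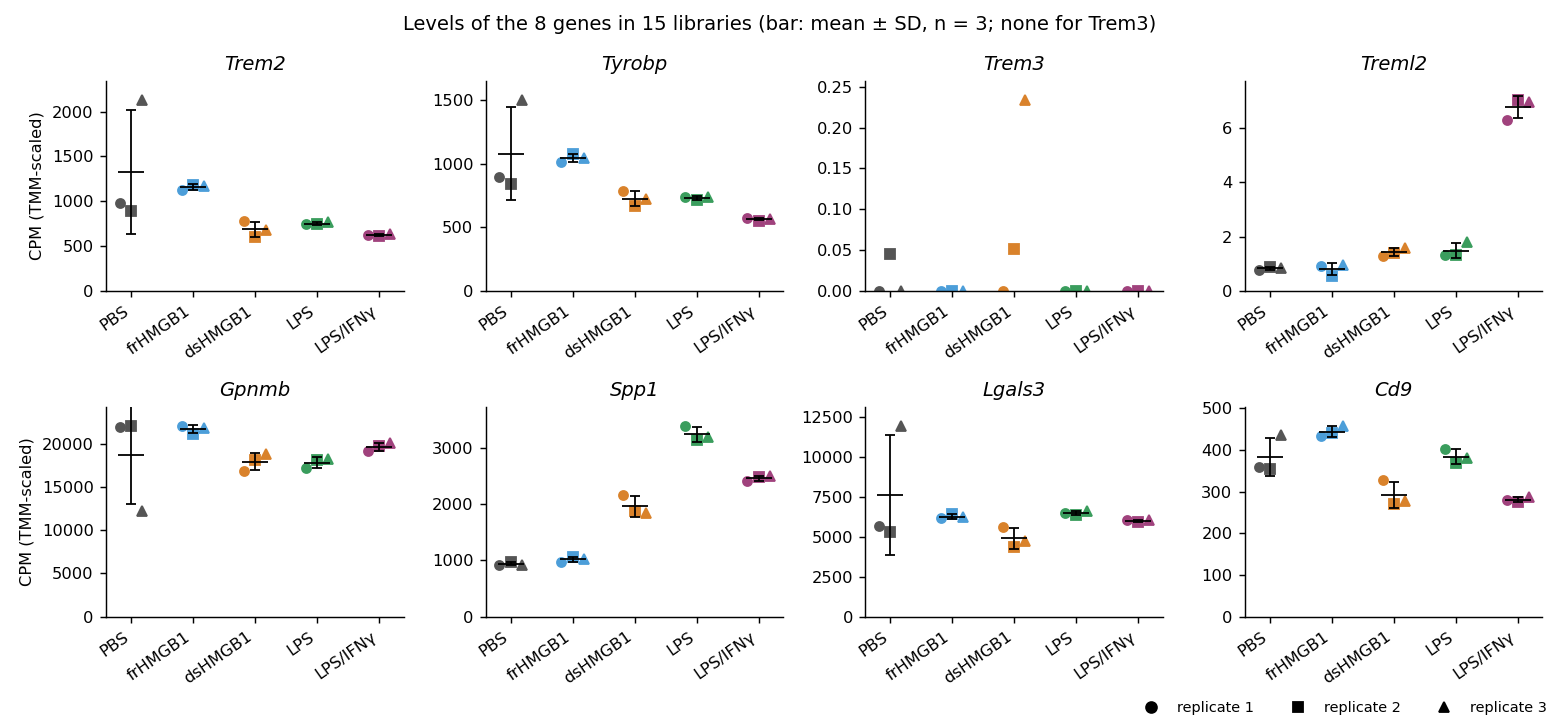
Level in CPM (TMM-scaled, y axis, from 0) of the 8 genes in each library (points, with a marker shape for each replicate) by group, with bars for the mean ± SD (n = 3), except for *Trem3*. *Spp1* is at 924 to 1056 CPM in the PBS and frHMGB1 libraries and at 1840 to 3391 in the others, *Treml2* reaches 6.32 to 7.03 after LPS/IFNγ, and PBS replicate 3 departs from its group for *Trem2*, *Tyrobp*, *Gpnmb* and *Lgals3*.

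Of 6 further TREM and CD300 receptors, 5 were in the table and 4 were tested. After LPS and after LPS/IFNγ 3 of the 4 fell and 0 rose, and after dsHMGB1 3 fell and 1 rose. Of all genes, 24.2% fell and 23.3% rose after dsHMGB1, 36.2% and 26.7% after LPS, and 31.2% and 29.0% after LPS/IFNγ. The list median was -1.33, -1.75 and -1.84 against -0.11, -0.27 and -0.15 for all genes after dsHMGB1, LPS and LPS/IFNγ. *Cd300a*, an inhibitory receptor for membrane lipids, went from 389.2 ± 29.7 CPM in PBS to 118.6 ± 4.51 after dsHMGB1, 66.1 ± 4.12 after LPS and 68.3 ± 3.52 after LPS/IFNγ (SD, n = 3), a log2 fold change of -1.72, -2.56 and -2.51 with edgeR adjusted p = 2.28e-09, 3.46e-11 and 3.64e-11. *Cd300c2*, of the same family, fell as well, with log2 fold changes of -0.95, -0.94 and -1.17, or -0.42, -0.37 and -0.65 without PBS replicate 3, where it was also called higher after frHMGB1 (0.22). *Treml1*, a receptor gene of platelets, fell from 3.01 ± 1.16 CPM in PBS to 0.634 ± 0.21, 0.259 ± 0.099 and 0.445 ± 0.198 CPM. Among other megakaryocyte and platelet markers, *Gp1bb* had 0 counts, *Ppbp* 5, *Gp9* 14 and *Itga2b* 186 in all libraries together, and *Itga2b* was also higher in PBS (0.392 CPM) than after dsHMGB1 (0.0989), LPS (0.15) or LPS/IFNγ (0.114). The part of such cells in the level of *Treml1* was not tested. The receptor that rose after dsHMGB1 was *Treml4*, from 0.226 ± 0.0867 to 0.797 ± 0.127 CPM (1.84, edgeR adjusted p = 0.0209).

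Downstream of the receptor, the 16 tested signalling genes moved in both directions. After dsHMGB1 5 rose and 4 fell (23.3% and 24.2% of all genes). After LPS 6 rose and 8 fell (26.7% and 36.2%), and after LPS/IFNγ 6 rose and 9 fell (29.0% and 31.2%). The list medians were -0.08, -0.38 and -0.59. *Syk*, the kinase that binds TYROBP, rose from 402.4 ± 101.1 CPM in PBS to 1680 ± 131.2 after dsHMGB1, by 2.06 ± 0.15 on the log2 scale (edgeR adjusted p = 9.65e-08), while *Tyrobp* itself fell. *Vav3*, a guanine nucleotide exchange factor, rose by 2.37, 2.37 and 2.45 after dsHMGB1, LPS and LPS/IFNγ, and *Pik3cd*, a catalytic subunit of PI3 kinase, by 1.62 after dsHMGB1 and 2.45 after LPS/IFNγ. With plain library totals *Syk* (1.13) and *Pik3cd* (1.17) were also called higher after LPS. *Inpp5d*, which encodes the phosphatase SHIP1 that opposes PI3 kinase, fell in the same 3 groups (log2 fold change -2.06, -3.50 and -2.86, edgeR adjusted p = 9.12e-07, 4.37e-09 and 2.48e-08). The transmembrane adaptor gene *Lat2* fell after LPS (-2.07). Its group means were 163.1 CPM in PBS, 69.4 after dsHMGB1, 38.7 after LPS and 36.0 after LPS/IFNγ. The phospholipase gene *Plcg2*, a TREM2 effector in microglia, was at 0.03 after dsHMGB1 (edgeR adjusted p = 0.864), -0.51 after LPS (edgeR adjusted p = 0.00734) and -0.64 after LPS/IFNγ (edgeR adjusted p = 0.00171). After frHMGB1, 1 of the 16 rose, the phosphatase gene *Ptpn6* (0.32 ± 0.09, edgeR adjusted p = 0.048), and without PBS replicate 3 4 did, with *Hcst* (0.65), *Card9* (0.38) and *Grb2* (0.17) added. With plain library totals 9 in place of 4 signalling genes were called lower after dsHMGB1.

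Among 11 genes of TREM2 ligands and of the proteases that shed and cleave the receptor, 3 rose and 1 fell after dsHMGB1 (23.3% and 24.2% of all genes). After LPS 5 rose and 2 fell (26.7% and 36.2%), and after LPS/IFNγ 4 rose and 3 fell (29.0% and 31.2%). The list medians were 0.20, 0.45 and 0.08. *Ms4a6d*, of the MS4A family whose human locus is linked to soluble TREM2, rose from 76.8 ± 11.6 CPM in PBS to 345.9 ± 19.4 after dsHMGB1, 562.4 ± 4.66 after LPS and 428.1 ± 14.4 after LPS/IFNγ (edgeR adjusted p = 2.36e-09, 1.02e-10 and 3.7e-10). *Adam17*, which encodes a sheddase of TREM2, rose by 1.70 ± 0.13 after dsHMGB1 (edgeR adjusted p = 2.24e-07). Its group means were 218.4 CPM in PBS, 710.4 after dsHMGB1, 534.6 after LPS and 356.6 after LPS/IFNγ. *Adam10*, the gene of the other sheddase, was at 0.07 ± 0.27 after dsHMGB1 (edgeR adjusted p = 0.846), or -0.26 and called lower without PBS replicate 3. *Psen2*, a catalytic subunit of gamma-secretase, fell in all 3 groups (-1.21, -1.71 and -1.73). *Apoe*, a lipoprotein ligand, was at 16464 ± 8301 CPM in PBS and at 11413 ± 1394, 13820 ± 416 and 10735 ± 285.5 CPM after dsHMGB1, LPS and LPS/IFNγ, and was called lower after LPS/IFNγ alone of the 3 (-0.62, edgeR adjusted p = 0.0388). Without PBS replicate 3 that call was lost (-0.13, edgeR adjusted p = 0.116), and *Apoe* was called higher after LPS (0.28, edgeR adjusted p = 0.00227). It was called lower in all 3 groups with plain library totals (-0.83, -0.84 and -1.23, edgeR adjusted p = 0.0032, 0.00203 and 0.000108). Under plain library totals 2 of the 11 were called higher after LPS and 1 after LPS/IFNγ, and 3 were called lower after dsHMGB1 and 4 after LPS. Without PBS replicate 3, 3 were called higher after frHMGB1, where 0 were with all libraries, and 2 lower after dsHMGB1.

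*Gpnmb* had the most reads of the members and the smallest spread of group means, with a highest mean 1.22 times the lowest. It was at 21936, 22040 and 12160 CPM in the PBS libraries, 22023, 21146 and 21772 after frHMGB1, 16834, 18078 and 18776 after dsHMGB1, 17143, 18080 and 18202 after LPS, and 19112, 19690 and 20009 after LPS/IFNγ. PBS replicate 3 was the lowest of the 15 libraries, at 0.553 times the mean of the other PBS libraries, and with it PBS overlapped every group. *Gpnmb* took 1.37% to 2.90% of all counts in a library, ranked 1 or 2 of 13025 protein-coding genes by CPM in each group, and 8 to 15 by RPKM. In none of the 10 comparisons was it called, with log2 fold changes against PBS of 0.21 ± 0.17 after frHMGB1, -0.06 ± 0.17 after dsHMGB1, -0.07 ± 0.17 after LPS and 0.07 ± 0.17 after LPS/IFNγ and 95% intervals that together reached from -0.43 to 0.57. Without PBS replicate 3 the values after dsHMGB1, LPS and LPS/IFNγ were -0.29, -0.27 and -0.18, each called lower (edgeR adjusted p = 7.14e-05, 0.000119 and 0.00443), and with plain library totals those after LPS and LPS/IFNγ were -0.73 and -0.61 and called lower as well. The value after frHMGB1 was -0.01 (edgeR adjusted p = 0.931) without PBS replicate 3. Against frHMGB1, *Gpnmb* was lower in every dsHMGB1 library, with a difference of -0.27 ± 0.17 (edgeR adjusted p = 0.193) that passed without PBS replicate 3 (-0.28, edgeR adjusted p = 2.77e-05). PBS replicate 3 is in neither group of this difference and enters it through the shared filter, scaling and estimate of the spread.

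*Spp1* showed the clearest rise among the abundant members. The gene of osteopontin was at 925.2, 979 and 924 CPM in PBS, 971.4, 1056 and 1030 after frHMGB1, 2171, 1870 and 1840 after dsHMGB1, 3391, 3138 and 3187 after LPS, and 2412, 2480 and 2498 after LPS/IFNγ. PBS replicate 3 was here at 0.97 times the mean of the other PBS libraries, and the ranges of dsHMGB1, LPS/IFNγ and LPS overlapped neither each other nor PBS and frHMGB1. The fold over PBS was 2.08 after dsHMGB1, 3.43 after LPS and 2.61 after LPS/IFNγ, or 1.06 ± 0.08, 1.78 ± 0.08 and 1.39 ± 0.08 on the log2 scale (edgeR adjusted p = 2.07e-07, 7.03e-10 and 7.8e-09), and it kept its call without PBS replicate 3 and with plain library totals, where it was 0.71, 1.15 and 0.73. After frHMGB1 it was 0.11 (95% interval -0.07 to 0.29, edgeR adjusted p = 0.556). The upper 3 groups differed from each other: dsHMGB1 was lower than LPS (-0.72, edgeR adjusted p = 3.23e-05) and than LPS/IFNγ (-0.33, edgeR adjusted p = 0.0074), and LPS/IFNγ was lower than LPS (-0.39, edgeR adjusted p = 0.00316). With plain library totals the difference of dsHMGB1 from LPS/IFNγ was lost (-0.02, edgeR adjusted p = 0.879), while those from LPS kept their call at -0.44 and -0.42. In RPKM *Spp1* went from 572 ± 19.1 in PBS to 1965 ± 81.4 after LPS, above *Tyrobp*, which was at 1092 ± 21.8 RPKM there. Reads of *Spp1* can share 309 exonic bases with *Gm42793* on the same strand, which had 420 counts in all libraries.

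Fibroblasts and osteoclasts also make osteopontin, and markers of both were measured. The summed fibroblast list, of which 6 of 7 genes passed the filter, was 131.8 to 272.5 CPM in PBS, 241.4 to 245.3 after frHMGB1, 235.9 to 298.1 after dsHMGB1, 317.8 to 342.9 after LPS and 347.6 to 355.3 after LPS/IFNγ, and thus also higher after LPS and LPS/IFNγ than in any PBS library. No gene of that list was at 0 throughout, and its lowest gene, *Lum*, had 46 counts. The summed osteoclast list, with 6 of 8 genes past the filter, was 1241 to 1361 CPM in PBS and 777.7 to 805.3 after LPS. Most of this sum was *Atp6v0d2*, also on the lipid-associated macrophage list, at 1120 CPM in PBS and 467 after LPS. *Ctsk*, *Itgb3* and *Dcstamp* were also lower after LPS, whereas *Acp5* (35.8 to 268.5 CPM) and the rare *Ocstamp*, *Oscar* and *Calcr* were higher. *Calcr*, which marks osteoclasts, had 7 counts in all. The part of such cells in the rise of *Spp1* was not tested.

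Most receptors and partners of osteopontin, GPNMB and galectin-3 rose after dsHMGB1, LPS and LPS/IFNγ. Of 12 genes tested, 9 rose and 2 fell after dsHMGB1, and 10 rose and 2 fell after LPS and after LPS/IFNγ. Of all genes, 23.3% rose and 24.2% fell after dsHMGB1, 26.7% and 36.2% after LPS, and 29.0% and 31.2% after LPS/IFNγ. The list medians were 1.54, 2.22 and 2.70, and after frHMGB1 0 of the 12 were called by edgeR (1 lower with RLE scaling). Without PBS replicate 3, *Sdc4* (0.28) was called higher there and *Itgav* (-0.31) and *Itgb3* (-0.36) lower. *Sdc4*, the heparan sulfate proteoglycan syndecan-4 that binds GPNMB, rose from 41.8 ± 12.3 CPM in PBS to 893.7 ± 135.4 after dsHMGB1, 2235 ± 68.9 after LPS and 4685 ± 79.2 after LPS/IFNγ (log2 4.42, 5.74 and 6.81, edgeR adjusted p = 4.05e-10, 3.26e-11 and 9.2e-12). *Cd44*, a receptor for osteopontin and hyaluronan, rose from 184.1 ± 47.7 CPM to 828.9 ± 54.6, 1943 ± 61.2 and 1505 ± 11.8 CPM. *Itga4*, an integrin chain that binds osteopontin, rose by 2.88, 3.11 and 4.47, and *Lag3*, a receptor known to bind galectin-3, by 5.31 after LPS and 3.32 after LPS/IFNγ from a level of 0.373 ± 0.117 CPM. *Lgals3bp*, a secreted partner of galectin-3, rose by 1.65, 2.24 and 1.96. Those that fell included *Itgb3*, the beta chain of the vitronectin receptor and also one of the osteoclast markers, from 54.1 ± 3.88 CPM in PBS to 16.9 ± 0.932, 8.86 ± 0.342 and 9.91 ± 1.02 CPM (edgeR adjusted p = 1.28e-08, 1.18e-10 and 1.9e-10).

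For *Lgals3* the result against PBS turned on PBS replicate 3 and on other settings. The gene of galectin-3 was at 5658, 5283 and 11955 CPM in PBS, 6165, 6434 and 6224 after frHMGB1, 5640, 4343 and 4713 after dsHMGB1, 6481, 6351 and 6592 after LPS, and 6042, 5952 and 6051 after LPS/IFNγ. PBS replicate 3 was 2.19 times as high as the mean of the other PBS libraries and the highest of the 15, the dsHMGB1 libraries included the 2 lowest, and PBS overlapped dsHMGB1. With all libraries *Lgals3* fell after dsHMGB1 (-0.64 ± 0.23, edgeR adjusted p = 0.0384), but without PBS replicate 3 it did not pass (-0.15, edgeR adjusted p = 0.104). The call was lost in 16 of 24 alternatives, the replicate block (-0.60, edgeR adjusted p = 0.0553) among them. After LPS the value was -0.24 (edgeR adjusted p = 0.394) and turned to 0.28 without PBS replicate 3, where it was called higher (edgeR adjusted p = 0.00342), and to -0.83 with plain library totals, where it was called lower. The value after frHMGB1 moved from -0.28 (edgeR adjusted p = 0.602) to 0.21 (edgeR adjusted p = 0.0707) without PBS replicate 3. That after LPS/IFNγ moved from -0.34 (edgeR adjusted p = 0.219) to 0.13 (edgeR adjusted p = 0.155). Between dsHMGB1 and LPS the libraries did not overlap, and the difference of -0.40 ± 0.23 was not called (edgeR adjusted p = 0.245), though it was without PBS replicate 3 (-0.43, edgeR adjusted p = 4.7e-05). Per length *Lgals3* was at 4108 ± 2018 RPKM in PBS beside 2873 ± 871.1 RPKM for *Gpnmb*, an order that came from PBS replicate 3 alone (6434 and 1867 RPKM), since *Gpnmb* was the higher in PBS replicates 1 (3367 and 3045) and 2 (3383 and 2843).

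*Cd9*, the tetraspanin, separated dsHMGB1 and LPS/IFNγ from LPS. It was at 358.9, 355.6 and 437 CPM in PBS, 432.8, 440.8 and 458.2 after frHMGB1, 327.1, 269.6 and 277.6 after dsHMGB1, 402.7, 368 and 381.5 after LPS, and 279.9, 274.6 and 287.4 after LPS/IFNγ. The dsHMGB1 and LPS/IFNγ libraries overlapped each other and lay below all others, and the LPS libraries lay within the PBS range. *Cd9* fell after dsHMGB1 (-0.40 ± 0.10, edgeR adjusted p = 0.00542) and after LPS/IFNγ (-0.45 ± 0.10, edgeR adjusted p = 0.00158), and both falls kept their call without PBS replicate 3 (-0.28 and -0.36). Neither fall was called in the test against 1.5-fold or in fits of the compared groups alone. After LPS the value was 0.00 (95% interval -0.22 to 0.22, edgeR adjusted p = 0.996), but with plain library totals it was -0.62 and called lower. *Cd9* was lower after dsHMGB1 than after LPS (-0.40, edgeR adjusted p = 0.00988) and lower after LPS/IFNγ than after LPS (-0.45, edgeR adjusted p = 0.0046), of which the first was lost with plain library totals (-0.12, edgeR adjusted p = 0.357). After frHMGB1 it stood at 0.21 (edgeR adjusted p = 0.331), and at 0.33 (edgeR adjusted p = 0.0047) without PBS replicate 3. *Cd9* shares 218 exonic bases with the antisense transcript *Gm26728*, which had 82 counts, and has a pseudogene, *Cd9-ps*, with 972 counts beside 314324 for *Cd9*.

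Tetraspanins and partners of CD9 moved in both directions. Of 11 genes tested, 4 rose and 3 fell after dsHMGB1 (23.3% and 24.2% of all genes). After LPS 6 rose and 4 fell (26.7% and 36.2%), and after LPS/IFNγ 5 rose and 3 fell (29.0% and 31.2%). The list medians were -0.05, 0.45 and 0.01. *Hbegf*, a growth factor precursor that associates with CD9, rose from 1.28 ± 0.111 CPM in PBS to 10.2 ± 1.17, 36.8 ± 1.70 and 65.6 ± 2.44 CPM (edgeR adjusted p = 8.41e-10, 8.99e-12 and 2.68e-12). *Igsf8*, a direct partner of CD9, rose by 1.46, 2.32 and 0.96, and *Tspan14*, which escorts ADAM10, fell after LPS (-1.76) and LPS/IFNγ (-1.71). With plain library totals 2 in place of 6 genes were called higher after LPS, and 8 in place of 3 lower after LPS/IFNγ. After frHMGB1 0 of the 11 were called by edgeR, and 1 was called higher without PBS replicate 3.

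Other genes of the lipid-associated macrophage programme moved in both directions. Of 25 genes 24 were tested, of which 2 rose and 9 fell after dsHMGB1 (23.3% and 24.2% of all genes). After LPS 4 rose and 9 fell (26.7% and 36.2%), and after LPS/IFNγ 4 rose and 13 fell (29.0% and 31.2%). The list medians were -0.29, -0.25 and -0.42 beside -0.11, -0.27 and -0.15 for all genes. For LPS the list median thus lay at that of all genes. After frHMGB1 2 rose, *Fabp5* (0.42 ± 0.08, edgeR adjusted p = 0.00463), a fatty acid carrier, and *Msr1* (0.33 ± 0.08, edgeR adjusted p = 0.0257, but 0.0799 with plain library totals). *Msr1*, a scavenger receptor for modified lipoproteins, rose from 80.3 ± 6.18 CPM in PBS to 721.4 ± 44.8 after dsHMGB1, 1168 ± 13.7 after LPS and 399.4 ± 10.1 after LPS/IFNγ (edgeR adjusted p = 8.88e-12, 1.07e-12 and 5.49e-11), and *Acp5*, the tartrate-resistant acid phosphatase, rose by 1.26, 2.91 and 2.18. *Plin2*, which coats lipid droplets, went from 1288 ± 128 CPM in PBS to 433.7 ± 38.7 after dsHMGB1 (-1.57, edgeR adjusted p = 8.11e-09). The lipid carrier *Fabp4* fell in the 3 groups (-2.20, -1.77 and -2.13), with -1.36, -0.90 and -1.31 without PBS replicate 3, in which it was high (PBS mean 428.2 ± 324.7 CPM). *Ctsd*, a lysosomal protease, fell after LPS (-1.38) and LPS/IFNγ (-1.67), with -0.65 and -0.99 without that library. The balance of the list is bound to these choices: without PBS replicate 3, 6, 9 and 7 genes rose and 12, 10 and 13 fell after dsHMGB1, LPS and LPS/IFNγ, and 9 rose after frHMGB1. With plain library totals 16, 18 and 19 of the 24 were called lower.

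Transcription factors of the MiT/TFE family and related regulators moved in both directions. The MiT/TFE factors bind lysosomal genes, and MITF is known to drive *Gpnmb*. *Tfec* rose from 14.2 ± 2.34 CPM in PBS to 188.4 ± 6.67 after dsHMGB1 and 163.9 ± 3.02 after LPS (edgeR adjusted p = 1.61e-11 and 1.38e-11), and *Mitf* from 79.7 ± 28.7 to 211.4 ± 34.3, 189.2 ± 9.13 and 215.7 ± 3.82 CPM after dsHMGB1, LPS and LPS/IFNγ (edgeR adjusted p = 0.000111, 0.000193 and 5.63e-05). *Tfeb* fell from 132.7 ± 42.6 CPM to 43.8 ± 4.19, 8.78 ± 1.04 and 12.4 ± 0.445 CPM (edgeR adjusted p = 6.21e-06, 1.08e-09 and 3.15e-09), and *Tfe3* fell after LPS (-0.61) and LPS/IFNγ (-0.94). *Pparg*, the lipid-sensing nuclear receptor, fell in the 3 groups (-2.54, -3.66 and -3.63). Of the 11 regulators 5 rose and 5 fell after dsHMGB1, and 4 rose and 6 fell after LPS and after LPS/IFNγ. Of all genes, 23.3% rose and 24.2% fell after dsHMGB1, 26.7% and 36.2% after LPS, and 29.0% and 31.2% after LPS/IFNγ. After frHMGB1 0 of the 11 were called by edgeR, and 3 were called higher without PBS replicate 3.

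**Figure D4:**
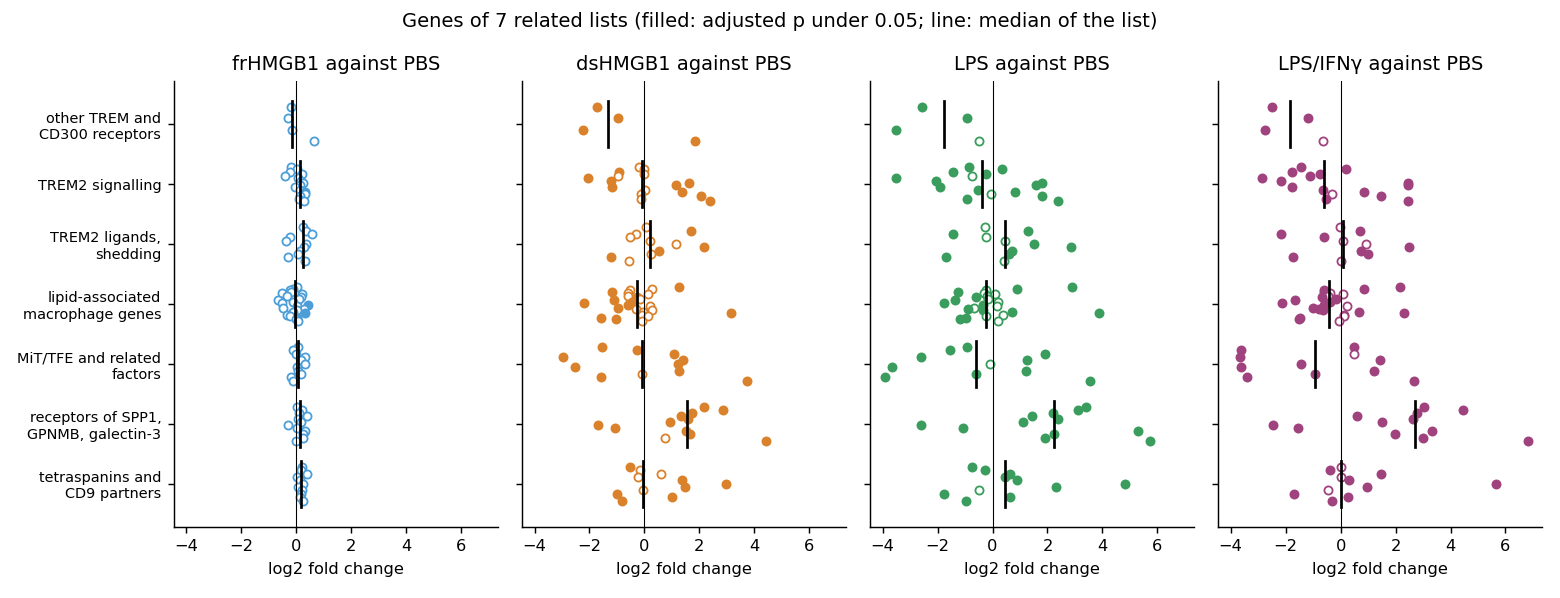
Log2 fold change against PBS (x axis) of each tested gene in 7 related lists (y axis), in 1 panel per stimulation, with filled points for an adjusted p under 0.05 and a line at the list median. The points stay close to 0 after frHMGB1, the receptors of osteopontin, GPNMB and galectin-3 lie mostly to the right after the other stimulations (medians 1.54, 2.22 and 2.70), and the lipid-associated macrophage genes spread to both sides with medians of -0.29, -0.25 and -0.42.

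The genes nearest to each member over the 15 libraries were found by the root-mean-square distance of centred log2 CPM among 10132 protein-coding genes with a mean of at least 100 counts. *Cd300c2* was nearest to *Trem2*, at a distance of 0.06, followed by *Fuca1* and *Mpst*. The nearest to *Tyrobp* were *Mapk3*, *Mrpl24* and *Pkig*, the first at 0.08, and the distance between *Tyrobp* and *Trem2* themselves was 0.14, the smallest between any 2 members. Near *Gpnmb* were *Ppp1r9b* and *Gga3*, each at 0.06. *Lgals3* was closest to *Cd63*, a lysosomal tetraspanin, at 0.07, and then to *Pafah1b3* and *Tradd*. *Spp1* was nearest to *Ube2d1*, *Rrp7a* and *Dnaja1*, *Cd9* to *Dhodh*, *Atp5g2* and *Tubb4b*, and *Treml2* to *Slamf8*, *Ece1* and *Ptger4*, the last 3 at 0.28 or more. These distances describe the same 15 libraries, PBS replicate 3 among them.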

How the data were processed

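RNA from 15 samples, 3 for each of 5 groups, was sequenced by the authors as stranded mRNA libraries and aligned to GRCm38 with STAR, per the paper's methods and the submitters' processing notes, which also name CASAVA and DESeq2. The deposited table holds raw counts, whole numbers of reads per Ensembl gene that the authors had neither normalized nor filtered. For the counting program, its annotation and its use of strand the entry is: not given in the sources used here. Groups came from the sample labels, and 0 columns had no sample. The labels give 10 days of culture and the paper 8 to 9. Of 51763 identifiers, 51661 were named through GENCODE M21, which also gave coordinates and exon lengths, and 102 were not.

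The members and the gene lists were chosen with earlier results of these data known. Counts were filtered with filterByExpr of edgeR 4.0.16 (minimum 10 per library, 15 in total), scaled by TMM and fitted over all 15 libraries with the quasi-likelihood F test and no covariate, in R 4.3.3, for 10 comparisons of groups, with Benjamini-Hochberg adjustment over 16919 genes. SEs and 95% intervals are from that fit. The fit was tested on simulated counts. Library totals were 40934540 to 80925478 counts, and reads copied by PCR are not independent molecules. The SEs, intervals and p-values cover only the spread between cultures and libraries from the same pool of cells. All members were named. Of each list up to 4 called genes, those with the largest change and a mean count no lower than 100, were named for dsHMGB1, LPS and LPS/IFNγ against PBS, and up to 2 for the other comparisons, of which a part is printed. *Adam10*, *Apoe*, *Plcg2*, *Itgb3*, *Lgals3bp*, *Treml1*, *Treml4*, *Hcst*, *Card9*, *Grb2*, *Itgav*, *Mitf*, *Tfe3* and single cell type markers were named outside this rule after their values were seen. The counts of mast cell, B cell and dendritic cell markers were low, with summed levels of at most 0.219, 1.07 and 19.1 CPM. Alternatives were the Wald test of DESeq2 1.42.0, RLE scaling, 2 other filters, protein-coding genes alone, a test against 1.5-fold, a fit of the compared groups alone, the leaving out of single libraries and a replicate block. Plain library totals and list counts without PBS replicate 3 were added after seeing the data. A few results are not reported here.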

Additional observations from a re-analysis of the deposited data

How the results depend on the processing

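Of the fold changes of single members under all alternatives, 1511 kept their direction and their side of the threshold, 80 lost a call, 41 gained one and 41 changed sign without being called on either side. The 7 that turned were, without PBS replicate 3, *Trem2* (0.32) and *Tyrobp* (0.28) after frHMGB1, *Lgals3* after LPS (0.28) and *Gpnmb* after LPS/IFNγ (-0.18), each against PBS, and, with plain library totals, *Cd9* after LPS (-0.62) and *Gpnmb* after LPS/IFNγ (-0.61) against PBS and *Lgals3* after LPS against frHMGB1 (-0.61); the cause was not tested. A test against a change of 1.5-fold called 1 member for dsHMGB1 and 1 for LPS against PBS, 1 for dsHMGB1 and 1 for LPS against frHMGB1 and 3 for LPS/IFNγ against frHMGB1, 0 for dsHMGB1 against LPS, 1 against LPS/IFNγ, and 1 for LPS/IFNγ against LPS. Fits of the compared groups alone, with fewer samples, called 2 for dsHMGB1, 2 for LPS and 3 for LPS/IFNγ against PBS, 4 for dsHMGB1 against LPS/IFNγ, 7 for LPS/IFNγ against LPS and 7 for LPS against frHMGB1. Against PBS, dsHMGB1 and LPS each had 2 members higher and 0 lower in these fits, and 1 higher and 0 lower in the 1.5-fold test. Plain library totals called 1 for dsHMGB1 against LPS. DESeq2, RLE scaling and no filter each called 2 for LPS against frHMGB1, in place of 4. With plain library totals or the length of the longest transcript, 54 group means in RPKM moved by more than their SD and 26 did not.

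With each library left out in turn, the members called ranged from 0 to 3 for frHMGB1, 4 to 6 for dsHMGB1, 4 to 6 for LPS and 5 to 6 for LPS/IFNγ against PBS, 3 to 7 for dsHMGB1, 2 to 6 for LPS and 5 to 6 for LPS/IFNγ against frHMGB1, 2 to 3 for dsHMGB1 against LPS, 2 to 5 against LPS/IFNγ, and 3 to 5 for LPS/IFNγ against LPS. For the fold changes that turned without PBS replicate 3, leaving out PBS replicate 2 gave the other end of the range, at -0.42 for *Trem2* and -0.19 for *Tyrobp* after frHMGB1, -0.44 for *Lgals3* after LPS and 0.20 for *Gpnmb* after LPS/IFNγ. The 3 for frHMGB1, the 7 for dsHMGB1 against frHMGB1, both values of 5 and the 6 for LPS against frHMGB1 came without PBS replicate 3, the 3 for dsHMGB1 against frHMGB1 without dsHMGB1 replicate 2, and the 2 for LPS against frHMGB1 without each LPS replicate.

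The groups share replicate numbers, but samples with the same number did not deviate together: over 30 same-number pairs the correlation of deviations from the group means was -0.386 to 0.375 with a median of -0.00453, and 1 pair was above 0.1. A replicate block called 5 members for dsHMGB1 against PBS, where *Lgals3* (-0.60) lost its call, and changed the number of members called in no other comparison. Over all genes, frHMGB1 against PBS gave 222 higher and 963 lower, but 1459 and 1576 without PBS replicate 3 and 41 and 29 among protein-coding genes fitted alone. Without PBS replicate 3 the calls also went from 2670 higher and 1791 lower to 4433 and 4032 for dsHMGB1 against LPS, from 2797 and 2824 to 4840 and 4398 against LPS/IFNγ, and from 2765 and 1583 to 4353 and 4213 for LPS/IFNγ against LPS. Depth limits *Treml2* and *Trem3*, and technical replicates limit every p-value to the spread within 1 pool of cells.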
